A study of Rattus norvegicus with 24 samples.

Results

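The bone morphogenetic protein (BMP) ligands and Id target genes followed here were chosen by Ensembl identifier: the ligands Bmp4 (ENSRNOG00000009694) and Bmp2 (ENSRNOG00000021276), and the target genes Id1 (ENSRNOG00000021750) and Id2 (ENSRNOG00000007237). Of the 4 identifiers, 3 had a row among the 16478 genes of the deposited expression table, and Bmp2 was not analysed here. Among the samples compared, Id1 was highest in irradiated neurospheres without a pretreatment, and a control sample left out of the comparisons was higher still. Id2 was 2.27 to 4.49 times as high as Id1 within a sample, with overlapping groups in all 7 main comparisons. Bmp4 stayed under 1 TPM, a transcript level scaled for transcript length and library size, in each sample. No member passed both thresholds of the test (an adjusted p of at most 0.05 and a change of at least 1.5-fold) in those 7 comparisons, before or after the batch correction. Before it, these thresholds were met by 0% to 0.0204% of all genes in 4 of the comparisons and by 0.392% to 6.42% in the other 3, so a count of 0 members says little.

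BMPs are secreted ligands of the TGF-beta family that bind paired type I and type II receptors at the cell surface, and the receptors phosphorylate Smad proteins, which enter the nucleus and switch on target genes. Id1 and Id2 are direct targets widely used as a readout of this signal, and their proteins pair with basic helix-loop-helix factors and keep them off DNA. Noggin is a secreted antagonist that binds BMPs and keeps them from their receptors. In neural progenitors, BMP signalling is known for promoting astrocyte formation.

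The neurospheres (NSps) are floating spheres grown from neural progenitor cells of the brains of E15 Sprague Dawley rat fetuses, in medium with epidermal and fibroblast growth factors. Of the 6 groups, C was neither irradiated nor pretreated, N received 5 µM Noggin and A received 200 µM ascorbic acid, an antioxidant. CGy, NGy and AGy were the same with 1 Gy of X-rays on day 3 after seeding, and the agents were given before and after radiation. Each group had 4 samples. The control sample MO2 was left out of the comparisons, as the paper did, and C then had MO1, MO3 and MO4. The remaining 23 samples were N (MO5 to MO8), A (MO9 to MO12), CGy (MO13, MO14B, MO15 and MO16), NGy (MO17 to MO20) and AGy (MO21 to MO24). No label says that samples of a group came from separate cultures or animals, so the p-values measure only the spread between these samples, which may be technical. In the labels, the samples with ascorbic acid have lower title numbers than those with Noggin or of CGy, and ascorbic acid and whatever this numbering stands for cannot be told apart.

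The proximal promoters of the 2 Id genes are given because they are the regulatory sequences next to the transcripts measured. Each run holds the 250 bases before the RefSeq start of the gene, read in the direction of transcription on build GRCr8, with Id1 at chr3:161671314-161671563 on the + strand and Id2 at chr6:47470996-47471245 on the - strand. Capitals mark matches to the core promoter element TATAAA and to the upstream promoter element CCAAT, which reads as ATTGG where it lies on the other strand.
Id1: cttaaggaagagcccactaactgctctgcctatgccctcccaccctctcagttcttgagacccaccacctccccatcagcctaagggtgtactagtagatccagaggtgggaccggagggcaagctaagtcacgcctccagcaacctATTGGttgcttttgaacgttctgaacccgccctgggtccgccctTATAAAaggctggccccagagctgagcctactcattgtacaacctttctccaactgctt
Id2: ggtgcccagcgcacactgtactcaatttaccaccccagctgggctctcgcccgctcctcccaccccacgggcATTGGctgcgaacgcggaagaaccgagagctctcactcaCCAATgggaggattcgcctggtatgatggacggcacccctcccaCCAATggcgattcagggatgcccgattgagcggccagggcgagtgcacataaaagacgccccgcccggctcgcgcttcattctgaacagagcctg

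Both strands were searched, and no matches overlapped. TATAAA occurred in 1 place in the Id1 window, starting 59 bases before the start, and in 0 places in the Id2 window, and 12.9% of 33469 rat promoter windows of the same length held it. CCAAT occurred in 1 place for Id1, 103 bases before the start, and in 3 places for Id2, at 178, 139 and 95 bases, against 34% of all windows with at least 1. The core letters of 2 elements bound by Smads, GGCGCC (in 8.69% of windows) and CAGAC (in 42.9%), were in neither window, which says only that these letters were not in these 250 bases. G and C made up 54.8% of the Id1 window and 62.8% of the Id2 window.

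Because TPM are scaled by transcript length, levels can be compared between genes. The deposited values keep no read counts, so sequencing depth and counting error are unknown. In the 23 samples the median gene had 2.57 to 3.20 TPM, and in MO2 it had 1.32 TPM. The tables list Ensembl identifiers without names, and 0 of the identifiers could be matched to the gene list given, so the receptors, Smads, other ligands and inhibitors of the pathway and the markers of neural and other cell types were not analysed here. The label of the cells as neural progenitors was therefore not checked against markers. In these bulk samples, fewer cells of a type and less RNA per cell cannot be told apart.

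Bmp4, the ligand, was listed at 0 or at a fraction of 1 TPM throughout. In C, MO3 had 0.285 TPM, and MO1, MO4 and the omitted MO2 were listed at 0. In N, Bmp4 was 0.344 TPM in MO5, 0.116 in MO7 and 0.124 in MO8, and it was listed at 0 in MO6. In A, MO9 had 0.117 TPM, and MO10, MO11 and MO12 were listed at 0. Without radiation, 5 of 11 samples were thus above 0 and 6 were listed at 0.

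With radiation, Bmp4 was above 0 in 11 of 12 samples, and the share of all genes with a like split was not computed. The CGy samples MO13, MO14B, MO15 and MO16 had 0.426, 0.143, 0.178 and 0.296 TPM. The NGy samples had 0.994, 0.127, 0.171 and 0.413 TPM, and MO17, with 0.994, was the highest of the 23. Of the AGy samples, MO22, MO23 and MO24 had 0.204, 0.226 and 0.145 TPM, and MO21 was listed at 0. The values of CGy, NGy and AGy overlapped with those of C and N, and samples above 0 numbered 4 of 8 with ascorbic acid and 12 of 15 without it. AGy also overlapped with A, whose highest value of 0.117 TPM lay below all CGy and NGy samples. Of the 9899 genes tested for A against CGy, 14% were lower in A without overlap. For A against NGy this share is not given.

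No sample reached 1 TPM for Bmp4, so the gene did not pass the filter of a mean of at least 1 TPM in a group of the pair and had no main test. Without the filter, its limma adjusted p lay between 0.397 (NGy against N) and 0.860 (N against C) over the 7 comparisons. The exact permutation p of Bmp4 alone (two-sided, unadjusted) lay between 0.143 (AGy against A) and 0.714 (A against C), with 0.2 for CGy against C and 0.171 for NGy against N. Between 21.5% and 24.5% of all genes were listed at 0 in each of the 23 samples. This share was 23.4% to 24.5% in C and N and lower, 22.1% to 23.2%, in CGy and NGy. In A (21.5% to 23.7%) and AGy (21.7% to 22.4%) it overlapped. Whether the zeros of Bmp4 go with this share was not tested. An exact 0 at these levels can be a failed estimate, so no fold change is given. The median of Bmp4 over the 23 samples was 0.143 TPM.

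**Figure D1:**
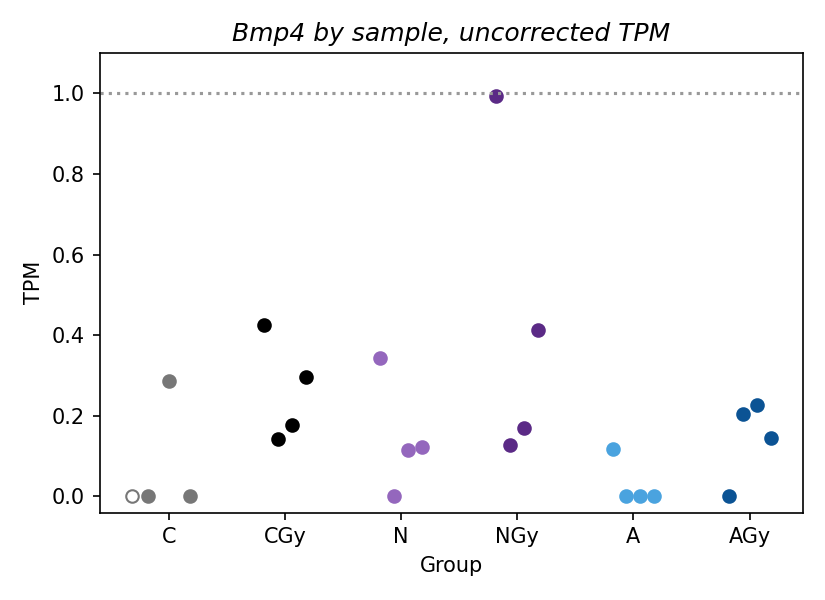
Bmp4 in TPM (vertical axis) by group, with 1 point per sample and the omitted control sample MO2 as an open circle. All points lie under the dotted line at 1 TPM, the filter for testing, and the highest is an NGy sample at 0.994 TPM.

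Id1, an inhibitor of basic helix-loop-helix factors and the target gene most often read as a BMP response, was measured well above the median gene, with 82.8% to 92.4% of all genes below it in each sample. Across the 23 samples it ranged 2.20-fold, from 35.2 TPM in MO11 to 77.2 TPM in MO16. Of the sum of squares of log2(TPM + 1) over these samples, 75.0% lay between groups for Id1, against 46.6% for the median gene and 17.0% for Id2. The CGy samples were the 4 highest of the 23, since the lowest of them had 59.4 TPM and the highest of the 19 others had 56.4 TPM. The omitted control sample MO2 was higher still, at 89.7 TPM. The share of all genes with CGy above every other group was not computed.

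The comparison of CGy with C asks what radiation alone did. Id1 was 56.1, 51.0 and 52.0 TPM in the C samples MO1, MO3 and MO4. In the CGy samples MO13, MO14B, MO15 and MO16 it was 59.4, 77.1, 71.3 and 77.2 TPM. All CGy samples lay above all C samples, which 9.03% of the 9782 genes tested did in the same direction. The means were 53.0 ± 2.69 TPM (SD, n = 3) in C and 71.3 ± 8.36 TPM (SD, n = 4) in CGy. The difference was 0.41 (SE 0.12, 95% interval 0.14 to 0.68) in log2(TPM + 1), or 1.33-fold, and limma's adjusted p was 0.314. In this comparison 0.0204% of genes were called, and 10.2% of genes had a larger difference upward than Id1.

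The exact permutation test of Id1 alone gave p = 0.0571 (two-sided, 35 splits, smallest possible 0.0286). After the batch correction by the study, limma's adjusted p for Id1 was 0.0201 with the same difference, which stayed under 1.5-fold. There 6.73% of genes passed both thresholds, which Id1 did not, and 43.2% had a limma unadjusted p of at most 0.05. The omitted control sample MO2 had 89.7 TPM, above all CGy samples, and with it the difference was 0.23 with an adjusted p of 0.608.

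Radiation was also compared in NSps with each pretreatment. With Noggin, Id1 was 46.9, 50.9, 46.6 and 51.5 TPM in MO5 to MO8 of N and 51.3, 53.7, 51.8 and 53.1 TPM in MO17 to MO20 of NGy. The groups overlapped at their edges, with means of 49.0 ± 2.55 and 52.5 ± 1.12 TPM (SD, n = 4 each). The difference was 0.10 (SE 0.06, 95% interval -0.03 to 0.23) in log2(TPM + 1), with a limma adjusted p of 0.260, and 2.91% of genes were called. It was 0.031 after the listed genes were rescaled to a common sum and 0.059 after quantile normalization.

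With ascorbic acid, Id1 was 44.0, 52.8, 35.2 and 42.9 TPM in MO9 to MO12 of A and 42.1, 46.4, 48.4 and 56.4 TPM in MO21 to MO24 of AGy. These groups overlapped over most of their range, with means of 43.7 ± 7.24 and 48.3 ± 5.98 TPM (SD, n = 4 each). The difference was 0.15 (SE 0.14, 95% interval -0.16 to 0.46), with a limma adjusted p of 0.684. It was 0.050 without MO11, 0.072 without MO24 and 0.24 without MO10, and 0.083 after the listed genes were rescaled to a common sum. Here limma called 0 genes (0%), with 1256 genes (12.7%) at an unadjusted p of at most 0.05.

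**Figure D2:**
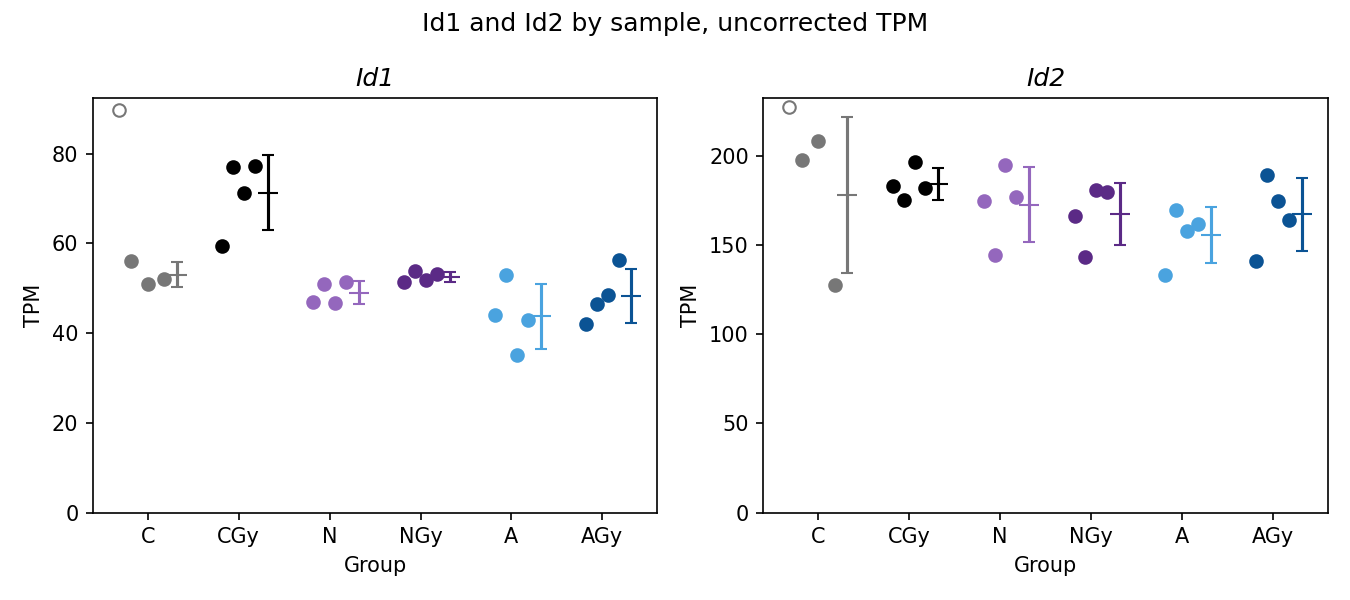
Id1 (left) and Id2 (right) in TPM by group, with 1 point per sample, the mean as a horizontal line and the SD as error bars (n = 3 for C, n = 4 for the others). The open circle is the omitted control sample MO2, which is not in the mean. For Id1 the 4 CGy points lie above all other filled points, and for Id2 the groups overlap, with C spanning 128 to 209 TPM.

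Noggin was then compared with no pretreatment at the same dose. Without radiation, the mean of Id1 was 49.0 TPM in N and 53.0 TPM in C, and the values overlapped, since MO8 of N (51.5 TPM) lay above MO3 of C (51.0 TPM). The difference was -0.11 (SE 0.08, 95% interval -0.31 to 0.08) with a limma adjusted p of 0.549, in a comparison where 0.0102% of genes were called. With MO2 among the controls it was -0.30, with an adjusted p of 0.601, and without MO1 it was -0.073. With radiation, the highest NGy sample had 53.7 TPM and the lowest CGy sample 59.4 TPM, so the groups did not overlap, as for 6.83% of the 9686 genes tested in the same direction.

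The mean of NGy relative to CGy was 0.744-fold on the log2(TPM + 1) scale, a difference of -0.43 (SE 0.09, 95% interval -0.63 to -0.22). The limma adjusted p was 0.0710, with 0.392% of genes called, and 3.61% of genes had a larger difference downward. The exact permutation test of Id1 alone gave p = 0.0286 (two-sided, 70 splits, the smallest possible). In the batch-corrected values the limma adjusted p was 0.0134, still under 1.5-fold. There 1.42% of genes passed both thresholds, which Id1 did not, and 33.5% had a limma unadjusted p of at most 0.05. Without MO13, the lowest CGy sample, the uncorrected difference was -0.51 with a limma adjusted p of 0.0274. With any other single sample omitted, the limma adjusted p stayed above 0.05, from 0.0981 (without MO14B) to 0.171 (without MO19). The share of all genes at 0.05 or less in these fits is not given.

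Whether the response to radiation differed with Noggin was tested as the difference between NGy against N and CGy against C. For Id1 this was -0.31 (SE 0.12, 95% interval -0.57 to -0.06) in log2(TPM + 1), with a limma adjusted p of 0.242 and 0.01% of genes past the threshold, which for this test had no fold limit. In the batch-corrected values the adjusted p was 0.0475, where 24.1% of genes passed. With MO2 among the controls the difference was -0.13, with an adjusted p of 0.744.

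For ascorbic acid without radiation, the mean of Id1 was 43.7 TPM in A and 53.0 TPM in C, and MO10 of A, with 52.8 TPM, lay within the range of C. The difference was -0.29 (SE 0.14, 95% interval -0.61 to 0.04) with a limma adjusted p of 0.470, and 0.0203% of genes were called. With MO2 it was -0.47, with an adjusted p of 0.628, and without MO11 it was -0.19. With radiation, all AGy samples (at most 56.4 TPM) lay below all CGy samples (at least 59.4 TPM), as for 12.2% of the 9847 genes tested.

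The difference between AGy and CGy was -0.55 (SE 0.12, 95% interval -0.82 to -0.28) in log2(TPM + 1), or 0.682-fold. The limma adjusted p was 0.0245, which 12.4% of genes reached at 0.05 or less, but the change was under 1.5-fold, and 6.42% of genes passed both thresholds. The exact permutation p for Id1 alone was 0.0286 (two-sided, 70 splits, the smallest possible). When any 1 sample was omitted, the difference stayed between -0.63 and -0.49, and the adjusted p, with fewer samples, lay between 0.0226 (without MO13) and 0.0720 (without MO16), above 0.05 without MO14B, MO15, MO16, MO21 or MO23. The response to radiation with ascorbic acid differed from that without it by -0.27 (SE 0.18, 95% interval -0.66 to 0.13), with a limma adjusted p of 0.658 and 0.00996% of genes past the threshold. In the batch-corrected values the adjusted p was 0.352, where 11.2% of genes passed. With MO2 among the controls the difference was -0.078, and without MO10 it was -0.17.

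**Figure D3:**
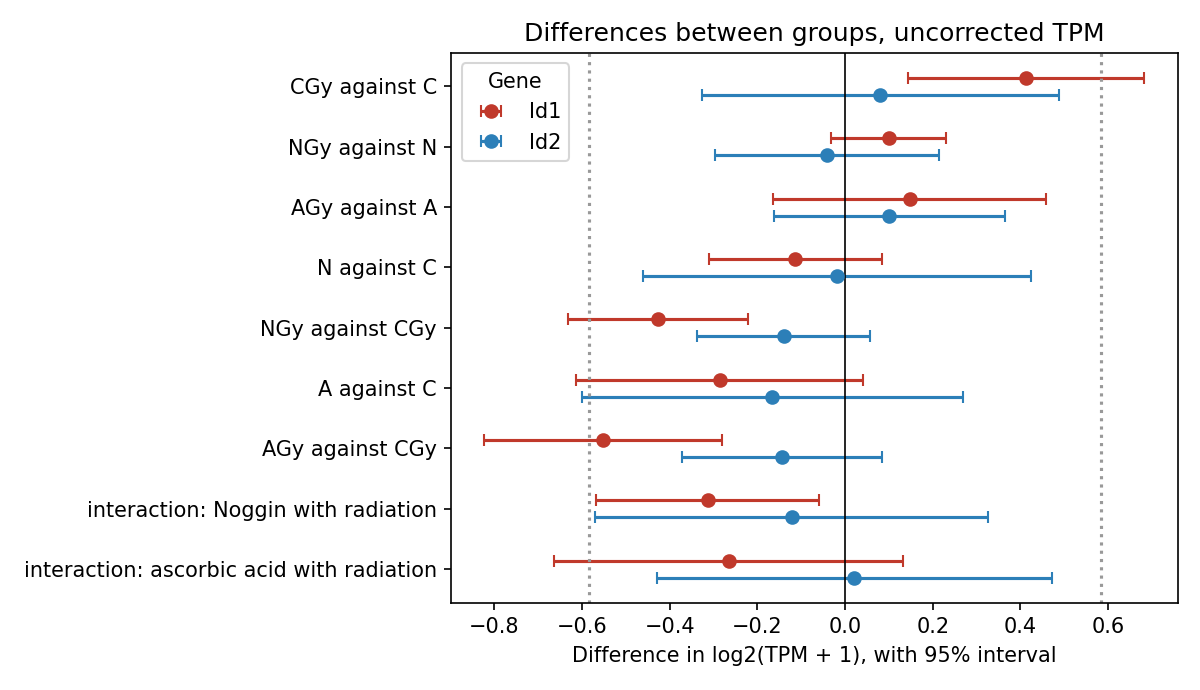
Differences in log2(TPM + 1) of Id1 (red) and Id2 (blue) in 7 comparisons and 2 interactions, before the batch correction, with bars for 95% intervals and dotted lines at 1.5-fold in either direction. The intervals of Id1 exclude 0 for CGy against C, NGy against CGy, AGy against CGy and the interaction with Noggin, and the intervals of Id2 all include 0.

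By mean log2(TPM + 1), the order of Id1 was CGy, C, NGy, N, AGy and A. Neighbours in this order did not pass the test, and apart from CGy and C they overlapped. Over all 15 pairs of groups, Id1 passed both thresholds in 1, A against CGy, which differ in both ascorbic acid and radiation. Id1 was lower in A by a difference of -0.70 (SE 0.14, 95% interval -1.01 to -0.39) with a limma adjusted p of 0.0109, where 11.5% of genes were called. It was also called in the batch-corrected table (limma adjusted p = 0.00422), where 13.4% of genes were called. Leaving out single samples was not run for this pair. In N against CGy the difference was -0.53 with an adjusted p of 0.0431, under 1.5-fold, in a comparison where 1.54% of genes reached 0.05 or less and 0.878% were called. Both A and N lay below CGy without overlap, as did 14% and 8.68% of genes. These pairs share the CGy samples and are not independent.

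Id2, which also blocks basic helix-loop-helix factors and is expressed in neural progenitors and glia, was among the more abundant transcripts, with 96.0% to 97.7% of genes below it. It ranged 1.63-fold over the 23 samples, from 128 TPM in MO4 to 209 TPM in MO3, and both of these were C samples. In C, Id2 was 197, 209 and 128 TPM in MO1, MO3 and MO4, so that C spanned the whole range of the other groups. In CGy it was 183, 175, 196 and 182 TPM in MO13, MO14B, MO15 and MO16, and these samples lay close together.

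In N, Id2 was 175, 144, 195 and 177 TPM in MO5 to MO8, and in NGy it was 166, 143, 181 and 179.7 TPM in MO17 to MO20. Each had 1 sample at 143 or 144 TPM, and MO7, MO8, MO19 and MO20 lay within the range of CGy. In A, it was 133, 169.8, 158 and 162 TPM in MO9 to MO12, and in AGy it was 141, 189, 175 and 164 TPM in MO21 to MO24.

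The highest mean of Id2 was in CGy, at 184 ± 8.92 TPM (SD, n = 4), and the lowest was in A, at 156 ± 15.8 TPM (SD, n = 4). C, with 178 ± 43.8 TPM (SD, n = 3), had the widest spread. N had 172.7 ± 20.8, NGy 168 ± 17.4 and AGy 167 ± 20.4 TPM (SD, n = 4 each). The order by mean log2(TPM + 1) was CGy, C, N, NGy, AGy and A, and all neighbours in it overlapped.

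Id2 did not pass the test in any comparison. CGy against C gave 0.08 (95% interval -0.33 to 0.49) in log2(TPM + 1) with a limma adjusted p of 0.813, and N against C gave -0.02 (95% interval -0.46 to 0.42) with an adjusted p of 0.967. NGy against CGy gave -0.14 (95% interval -0.34 to 0.06) with an adjusted p of 0.443, and AGy against CGy gave -0.14 (95% interval -0.37 to 0.08) with an adjusted p of 0.348. These 4 intervals exclude a 1.5-fold difference in either direction, which is a limit of precision and does not show that the groups were alike. Radiation within a pretreatment gave -0.04 (95% interval -0.30 to 0.21) for NGy against N and 0.10 (95% interval -0.16 to 0.37) for AGy against A, with limma adjusted p of 0.830 and 0.745. A against C gave -0.17 (95% interval -0.60 to 0.27) with an adjusted p of 0.767, and this interval holds a 1.5-fold lower level. It was -0.39 (adjusted p = 0.169) without MO4, the low control sample, and -0.035 without MO3. For the Noggin interaction Id2 gave -0.12 (SE 0.21) with a limma adjusted p of 0.777, and for ascorbic acid 0.02 (SE 0.21) with 0.977. Of the 15 pairs, A against CGy had no overlap, with A lower, as for 14% of genes, at a difference of -0.25. Its limma adjusted p was 0.0932 before and 0.0390 after the batch correction, and the difference was under 1.5-fold. An adjusted p of at most 0.05 was reached by 21% of genes before and 37.6% after it, so this value is not particular to Id2.

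The batch correction of the study touched Id1 and Id2 unequally. It left each group mean of log2(TPM + 1) in place and removed 0.820% of the sum of squares within groups for Id1, 60.4% for Id2 and 2.63% for Bmp4. For Id2, the C samples spanned 128 to 209 TPM before it and 162 to 186 TPM after it. After the correction the adjusted p of Id2 lay between 0.108 and 0.923 in the 7 comparisons, and 0 of them was called. Neither Id gene was called in any of the 7 comparisons of the corrected table, where the share of all genes called was 6.73% for CGy against C, 4.72% for NGy against N, 1.04% for AGy against A, 3.88% for N against C, 1.42% for NGy against CGy, 2.44% for A against C and 9.07% for AGy against CGy. The values of Id1 were almost the same in the corrected table. In CGy against C, its limma unadjusted p was 0.00836 before and 0.00398 after the correction. The share of genes at an unadjusted p of at most 0.05 there was 14.6% before and 43.2% after it. Why the adjusted p of Id1 was lower was not tested.

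**Figure D4:**
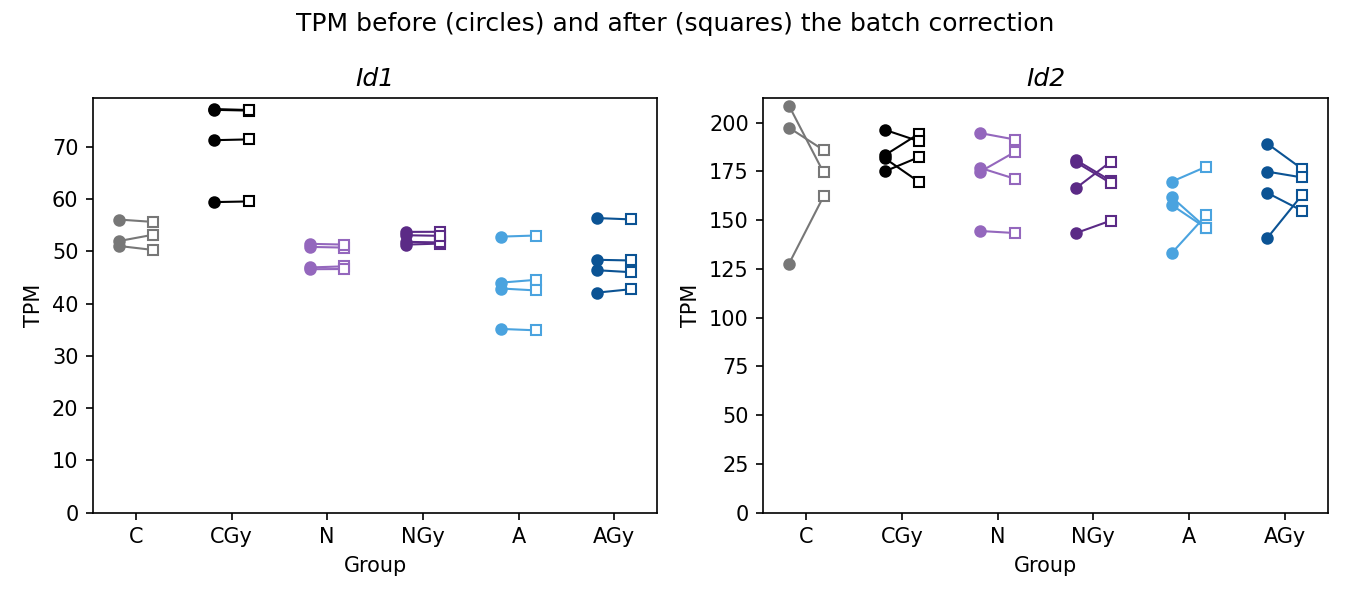
TPM of Id1 (left) and Id2 (right) in each of 23 samples before (filled circles) and after (open squares) the batch correction, by group, with lines joining the same sample. The values of Id1 hardly move, and the 3 C values of Id2 draw together from 128 to 209 TPM to 162 to 186 TPM.

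The ratio of Id2 to Id1 within a sample describes the balance of the 2 target genes and needs no scaling between samples. Its median was 3.52 in C (2.46 to 4.09), 3.58 in N (2.84 to 4.18) and 3.49 in A (3.02 to 4.49). It was 2.55 in CGy (2.27 to 3.08), 3.32 in NGy (2.67 to 3.49) and 3.48 in AGy (2.91 to 4.08). CGy had the lowest median, and its values overlapped with those of each other group. In MO2 the ratio was 2.54.

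**Figure D5:**
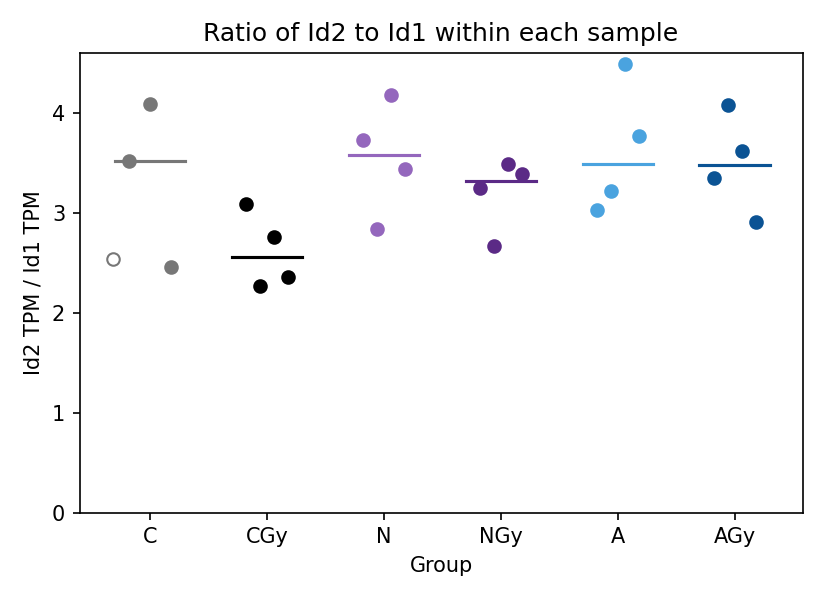
Ratio of Id2 TPM to Id1 TPM (vertical axis, starting at 0) by group, with 1 point per sample, the group median as a line and the omitted control sample MO2 as an open circle. The CGy median of 2.55 is the lowest, and the other medians lie between 3.32 and 3.58.

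Within groups, the members showed no shared deviations that passed a test. After group means were removed, Id1 and Id2 had a Pearson's r of 0.055 (permutation p = 0.789) and a Spearman's rho of -0.11 (permutation p = 0.654) over 23 samples, with an r of -0.0065 without the 2 samples farthest from the median. Id1 and Bmp4 had an r of -0.16 (permutation p = 0.280) and a rho of -0.23 (permutation p = 0.280), and Id2 and Bmp4 an r of 0.31 (permutation p = 0.221) and a rho of 0.26 (permutation p = 0.293). Over these 3 pairs the adjusted p of r was 0.789, 0.421 and 0.421.

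Across all 23 samples, group differences included, the 2 genes most like Id1 among 10133 others were ENSRNOG00000026008 (r = 0.775) and ENSRNOG00000001297 (r = 0.773), and Id2 had an r of 0.347 with Id1. These correlations share libraries and group means and are a description. ENSRNOG00000001297 had means of 45.2 TPM in C, 61.4 in CGy, 46.7 in N, 54.2 in NGy, 42.4 in A and 44.1 in AGy. Its highest mean was in CGy, as for Id1, which picking genes by r with group differences included favours. The 2 genes most like Id2 had an r of 0.844 and 0.839.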

How the data were processed

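The authors aligned reads of poly(A)-selected RNA libraries with STAR 2.6.1 (build Rn7), made TPM with kallisto and deposited them for 24 samples. They also deposited a table without MO2 that NOISeq had batch-corrected, whose values are scores equal to 0.5 times the corrected TPM + 1. These were doubled, and the 6.55% of corrected TPM below 0 were set to 0. Uncorrected TPM were the main values because the correction used the group labels.

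Columns carry the study's sample codes, and the groups of these codes follow the rule for the members and the study's methods and figures. No column could be tied to one labelled sample, so columns served as unpaired replicates. The members' names are those of the rule. The members and lists were chosen with earlier results of these data known. Genes named were the members and the 2 genes most like each by Pearson's r, with identifiers printed for Id1 only.

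Comparisons were fitted on log2(TPM + 1) with lmFit and eBayes of limma 3.58.1 (R 4.3.3), using only the samples concerned and the genes that averaged 1 TPM or more in a group concerned, with Benjamini-Hochberg adjustment over all of them. A call needed an adjusted p of at most 0.05 and at least 1.5-fold. All folds refer to log2(TPM + 1), which understates changes of low genes. The functions were tested on simulated data. Permutation p for likeness used 100000 shuffles within groups. The alternatives were the corrected table, MO2 kept, a pseudocount of 0.1, no filter, quantile normalization, rescaling of the listed genes to a common sum, all 6 groups in one fit, adjusted p alone, exact permutation and each sample left out. The 2 removed components as covariates were added after seeing the data. Promoters are from RefSeq (GRCr8), where 3 of 3 members matched. Their coordinates are not those of the files' build.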

Additional observations from a re-analysis of the deposited data

Results flagged for a closer look

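Within a group of 4 samples, a sample stood far from the others in 3 of 18 sets of values, as judged by the gap to its nearest neighbour relative to the whole range (Dixon's criterion at 95%), and chance alone gives about 1 in 20 such sets. For Id1 in group C, MO2 had 89.7 TPM, with the nearest control at 56.1 TPM and a gap of 0.869 of the range. This is the sample that the study left out, and its median gene was at 1.32 TPM against 2.57 to 3.20 TPM in the others. For Bmp4 in group C, MO3 had 0.285 TPM and the other 3 controls, MO2 included, were listed at 0. For Bmp4 in group A, MO9 had 0.117 TPM and the other 3 samples were listed at 0. For Bmp4 any single value above 0 beside values of 0 meets this criterion.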

How the results depend on the processing

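For Id1, 79 values under alternatives other than leaving out a sample kept the direction and the side of the threshold, 3 moved past it, and 0 turned direction. The corrected table, no filter, the fits with all 6 groups, exact permutation and adjusted p alone left the differences of both Id genes unchanged. Under these alternatives the direction could not turn, so that part of the counts was fixed in advance. AGy against CGy passed when the listed genes were rescaled to a common sum (-0.59, adjusted p = 0.0249) and by adjusted p alone (-0.55). With each sample left out it ranged from -0.63 to -0.49 and passed without MO13 or without MO24. The interaction of Noggin with radiation for Id1 passed in the batch-corrected table (-0.31, limma adjusted p = 0.0475). It did not pass with the 2 removed components as covariates (adjusted p = 0.189) or with all 6 groups in one fit (adjusted p = 0.345). With these covariates the limma adjusted p of Id1 was 0.0146 in CGy against C, 0.0208 in NGy against CGy and 0.000707 in AGy against CGy, all under 1.5-fold. In the other comparisons of 2 groups it lay between 0.103 (A against C) and 0.538 (N against C). The covariates were made from the deviations of these same samples from their group means. They left each difference unchanged and took out spread within groups only, so lower p-values here are no added support. The share of all genes at 0.05 or less in this fit is not given. For Id2, which passed in none, 79 values kept their direction and 3 turned it: CGy against C with MO2 kept (-0.016), N against C after quantile normalization (0.0015) and the interaction of ascorbic acid with radiation after rescaling (-0.027). With each sample left out, Id2 ranged from -0.14 (without MO4) to 0.21 (without MO3) in CGy against C, -0.24 (without MO4) to 0.11 (without MO3) in N against C, -0.12 (without MO6) to 0.032 (without MO18) in NGy against N, -0.39 (without MO4) to -0.035 (without MO3) in A against C, 0.029 (without MO9) to 0.18 (without MO21) in AGy against A, -0.18 to -0.067 (without MO18) in NGy against CGy, -0.21 to -0.066 (without MO21) in AGy against CGy, -0.25 (without MO3) to 0.10 (without MO4) in the interaction with Noggin and -0.11 (without MO3) to 0.24 (without MO4) in that with ascorbic acid. The cause of these shifts was not tested. Rescaling moved the median of all genes by -0.07 to 0.02 (log2). No paired analysis was possible because the columns could not be matched to single labelled samples and carry no shared replicate numbers. TPM hold no counts, so depth sets no stated limit on these values, and with 3 or 4 samples a group the smallest exact p is 0.0286.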
